A study of Homo sapiens with 8 samples.

Results

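The genes described here are markers of the epithelial lineages of the oesophagus, a list of 10 genes: KRT7, KRT8, KRT18, KRT19 and KRT20 for columnar epithelium, and KRT5, KRT13, KRT14, TP63 and SOX2 for squamous epithelium. They were looked up by symbol among the 30755 genes of an RNA-seq table, and 9 of the 10 were found. TP63 is not analysed here. The table holds 2 libraries of ESO26 cells in which HNF4A was knocked down with small interfering RNA (labelled siHNF4A) and 2 libraries of control cells. ESO26 is an established line derived from adenocarcinoma of the oesophagus, a tumour of columnar type, and all 4 libraries come from it. What the control cells received, and how long after transfection the RNA was taken, is not given in the sources used here. The labels do not say whether the 2 libraries of a group came from separate cultures, so the p-values measure the spread between these libraries, which may be technical.

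Keratins are the intermediate filament proteins of epithelial cells. A filament is built from pairs of a type I (acidic) and a type II (basic) chain, and the choice of chains marks the kind of epithelium. KRT8 (type II) and KRT18 (type I) are the basic pair of simple, single-layered epithelia, KRT19 is a type I chain of ductal and glandular epithelia, KRT7 a type II chain of ductal epithelia, and KRT20 a type I chain of intestinal and gastric surface cells. KRT5 and KRT14 pair in the basal cells of stratified squamous epithelium, and KRT13 is made in the upper layers of the oesophageal lining. TP63 and SOX2 are transcription factors of the squamous lineage. HNF4A is a nuclear receptor of the gut and liver that belongs to the columnar side.

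The columnar chains did not move together after HNF4A knockdown. KRT8 and KRT18 fell, to 74.4% and 70.3% of the control mean, while KRT19 rose to 117% of it, and KRT7 and KRT20 were not called. On the squamous side KRT14 was near 0 in the controls and at 12.2 and 25.7 normalized counts in the knockdown, and KRT5, KRT13 and SOX2 stayed at or under 34.8 normalized counts in all 4 libraries without a call. Of 14 tested genes of a wider squamous programme 1 was called higher, 1 lower and 12 were not called, where 14.1% of all tested genes were called.

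A normalized count is the authors' value for a gene, and its normalization is not given in the sources used here. Whether it was corrected for the length of the transcript is therefore unknown. No transcript lengths were used here, so differences are tested between libraries, and levels of different genes can be compared only roughly. Differences were tested with limma on log2(normalized count + 1) over the 15577 genes that averaged at least 10 normalized counts across libraries, and a gene was called at a Benjamini-Hochberg adjusted p under 0.05. In this fit 14.1% of all tested genes were called, 6.02% higher and 8.11% lower in the knockdown. Of the 9 markers 8 passed the filter. KRT8 and KRT18 were called lower and KRT19 higher. KRT14 was called higher too, but it passed the filter through the knockdown libraries alone and so had to differ, and its call is given as a description. At an adjusted p under 0.01, KRT8 and KRT18 were called, against 5.66% of all tested genes. Genes with many reads were called more often, 37.6% of the 615 genes that averaged at least 5000, and KRT8, KRT18 and KRT19 belong to these. The targeted gene itself was measured at 4129 and 3937 normalized counts in the controls and at 1140 and 932 in the knockdown libraries. The 4 libraries summed to between 17912507 and 18613685 normalized counts. The knockdown libraries listed fewer genes at 0 (4260 and 4362) than the controls (5479 and 5640), and the part of this difference in the values of weakly expressed markers was not tested.

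**Figure D1:**
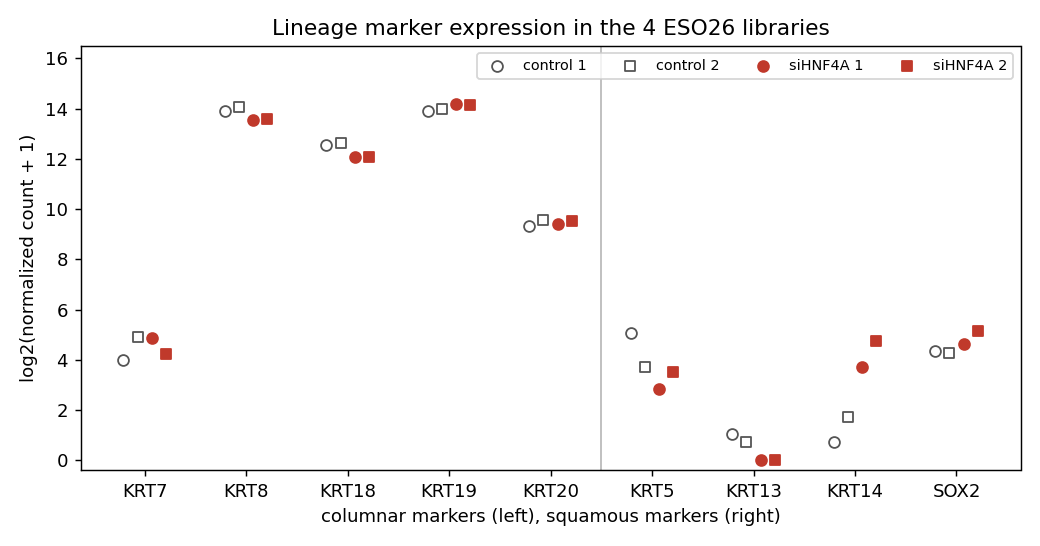
Expression of the 9 markers in each library on the log2(normalized count + 1) scale; open symbols are the 2 control libraries, filled symbols the 2 siHNF4A libraries, and the vertical line divides columnar from squamous markers. KRT8 and KRT18 lie lower and KRT19 higher in both siHNF4A libraries, and KRT14 lies at 0.637 and 2.29 normalized counts in the controls and at 12.2 and 25.7 in the knockdown.

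The windows of 250 bases before an annotated gene start are shown for the markers that have an entry in the RefSeq promoter table (GRCh38.p14) and values here: KRT8, which fell, and KRT20, KRT5 and SOX2, which were not called. No entry was found for KRT7, KRT18, KRT19, KRT13 or KRT14. Windows are at chr12:52926470-52926719 (minus strand) for KRT8, chr17:40885243-40885492 (minus strand) for KRT20, chr12:52520395-52520644 (minus strand) for KRT5 and chr3:181711675-181711924 (plus strand) for SOX2. Each is written 5′ to 3′ on the strand of the gene, and capitals mark matches to a searched motif.
KRT8: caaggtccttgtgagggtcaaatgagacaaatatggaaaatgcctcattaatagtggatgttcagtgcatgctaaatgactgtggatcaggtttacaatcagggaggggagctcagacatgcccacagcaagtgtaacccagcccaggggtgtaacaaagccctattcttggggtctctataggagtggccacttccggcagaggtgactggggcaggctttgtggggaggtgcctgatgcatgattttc
KRT20: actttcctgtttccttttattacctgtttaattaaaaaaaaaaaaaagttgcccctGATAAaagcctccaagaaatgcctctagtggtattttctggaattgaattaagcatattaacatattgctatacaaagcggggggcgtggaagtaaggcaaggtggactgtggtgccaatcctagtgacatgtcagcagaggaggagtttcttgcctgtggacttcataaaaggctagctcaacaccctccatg
KRT5: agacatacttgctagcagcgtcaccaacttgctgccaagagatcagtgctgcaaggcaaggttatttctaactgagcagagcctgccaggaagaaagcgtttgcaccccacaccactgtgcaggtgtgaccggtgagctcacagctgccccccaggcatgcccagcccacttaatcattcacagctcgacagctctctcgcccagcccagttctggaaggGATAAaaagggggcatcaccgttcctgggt
SOX2: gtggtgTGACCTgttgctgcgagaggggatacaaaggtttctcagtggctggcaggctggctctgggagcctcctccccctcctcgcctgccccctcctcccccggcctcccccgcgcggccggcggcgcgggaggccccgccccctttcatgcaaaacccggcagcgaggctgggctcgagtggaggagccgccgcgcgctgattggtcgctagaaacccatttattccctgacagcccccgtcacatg

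The motifs, searched on both strands, were CAAAGTCC, a core of the site that HNF4 proteins prefer, AGGTCA, the hexamer that many nuclear receptors bind, and GATAA, the core of GATA factor sites. CAAAGTCC was in none of the 4 windows and is in 1.02% of all 35116 windows of this length. AGGTCA was found once, in the SOX2 window on the opposite strand from base 244 before the start, and 12.1% of all windows hold it. GATAA was found once each in the KRT20 window, from base 194 before the start, and in the KRT5 window, from base 30, against 20.4% of all windows. The KRT8 window held none of the 3 motifs. It belongs to a start that lies 23391 bases inside the outermost RefSeq start of KRT8, a gene with 4 RefSeq transcripts, and which start these cells use cannot be read from values per gene. Binding of HNF4A and GATA4 near the markers is not given, because the peak lists are on another genome build (hg19, per the submitters' processing notes) than the gene positions used here.

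Of the chains of simple epithelium, KRT8, the type II partner of KRT18, had 15550 and 17047 normalized counts in the controls, against 11889 and 12352 in the knockdown. Both knockdown libraries lay below both controls. The means were 16299 ± 1058 and 12121 ± 327 (SD, n = 2 in each group). In limma the knockdown differed by -0.43 on the log2 scale (SE 0.058, adjusted p = 0.0016).

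KRT18, the type I partner, had 5981 and 6333 normalized counts in the controls, against 4357 and 4296 in the knockdown. The groups did not overlap here either, and the knockdown libraries lay closer to each other than the controls did. The means were 6157 ± 249 and 4327 ± 43.0 (SD, n = 2). In limma the knockdown differed by -0.51 on the log2 scale (SE 0.059, adjusted p = 7.19e-04). KRT8 and KRT18 were called in each of the 4 fits that left out 1 library. Without a trend of the variance with expression in the model, neither was called (adjusted p = 0.140 for KRT8 and 0.115 for KRT18 in limma), and nor was any other gene of the table, with 3524 genes at an unadjusted p under 0.05.

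KRT8 and KRT18 are neighbours on chromosome 12 and their RefSeq spans overlap at 1 end, and no source used here says if reads were counted by strand. Both genes have many processed pseudogenes, copies of the mRNA inserted elsewhere in the genome. The 17 KRT8 pseudogene symbols of the table summed to 116 and 134 normalized counts in the controls, against 132 and 119 in the knockdown, at most 1.11% of KRT8 in any library. The 16 KRT18 pseudogene symbols summed to between 20.8 and 27.4, at most 0.629% of KRT18. Adding them to their genes left both calls in place, with log2 fold changes of -0.42 for KRT8 and -0.51 for KRT18.

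KRT19, a small type I chain of glandular epithelium that lacks the usual tail, went the other way. It had 15444 and 16367 normalized counts in the controls, against 18881 and 18220 in the knockdown. Both knockdown libraries lay above both controls. The means were 15905 ± 653 and 18550 ± 467 (SD, n = 2), a difference of 0.22 on the log2 scale (SE 0.052, adjusted p = 0.0192 in limma). The call was lost without control 1 (adjusted p = 0.0521 in limma), siHNF4A 1 (0.152) or siHNF4A 2 (0.0814), and held without control 2 (0.00703).

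KRT20, a chain of differentiated gastric and intestinal cells, had 637 and 748 normalized counts in the controls, against 679 and 735 in the knockdown. The 2 groups overlapped. The fitted log2 fold change of 0.034 had a 95% interval from -0.21 to 0.28 (adjusted p = 0.873 in limma). The falls of KRT8 and KRT18 lie outside this interval.

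KRT7, the ductal type II chain, was weakly expressed, with 15.1 and 28.6 normalized counts in the controls, against 28.5 and 17.8 in the knockdown. The groups overlapped and the controls differed from each other as much as from the knockdown. The fitted log2 fold change of 0.11 had a 95% interval from -0.87 to 1.09 (adjusted p = 0.901 in limma), so that a change of the size of KRT18 in either direction is within this interval.

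Ratios within a library show the shift between chains free of the library's scale, and the transcript length cancels when a ratio of 2 genes is compared between groups. KRT18 per KRT8 was 0.385 and 0.372 in the controls, against 0.366 and 0.348 in the knockdown. The knockdown libraries lay slightly lower, by 0.082 on the log2 scale on average. KRT19 per KRT8 was 0.993 and 0.960 in the controls, against 1.59 and 1.48 in the knockdown, a mean difference of 0.65 on the log2 scale. KRT19 per KRT18 was 2.58 in both controls and 4.33 and 4.24 in the knockdown, a mean difference of 0.73. In each of these ratios the groups did not overlap, and the difference in KRT18 per KRT8 was the smallest of the 3.

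KRT20 per KRT8 was 0.0410 and 0.0439 in the controls, against 0.0571 and 0.0595 in the knockdown, although KRT20 itself was not called. The summed type I chains KRT18, KRT19 and KRT20 over the summed type II chains KRT7 and KRT8 came to 1.42 and 1.37 in the controls, against 2.01 and 1.88 in the knockdown, a mean difference of 0.48 on the log2 scale. No transcript lengths were used for these sums, so their ratio cannot be read as a ratio of molecules. For each of these ratios the exact two-sided permutation test gave a p of 0.333, the smallest that 2 libraries against 2 allow.

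**Figure D2:**
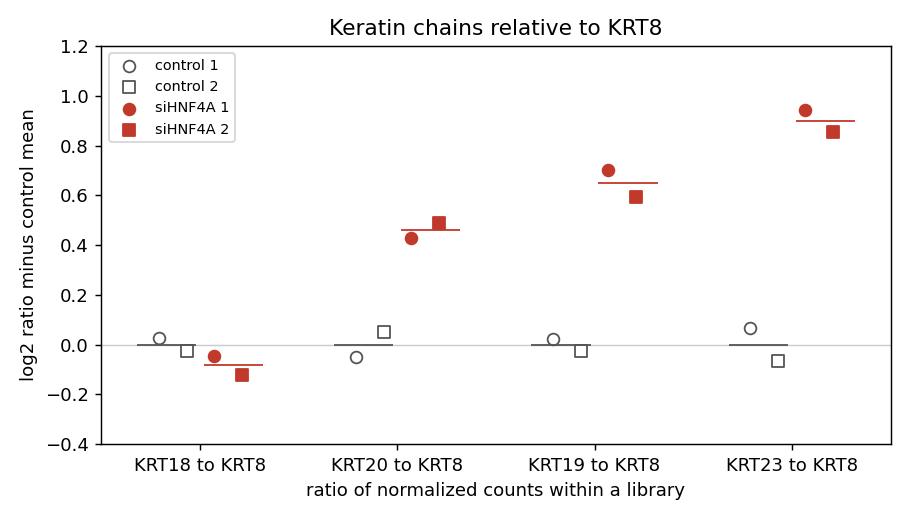
Ratios of normalized counts within each library, on the log2 scale with the control mean set to 0; open symbols are control libraries, filled symbols siHNF4A libraries and short lines the group means. KRT18 per KRT8 moved by -0.082, KRT20 per KRT8 by 0.46, KRT19 per KRT8 by 0.65 and KRT23 per KRT8 by 0.90. All are taken per KRT8, which itself had a log2 fold change of -0.43, so they are not separate observations.

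On the squamous side, KRT14, the basal type I chain, had 0.637 and 2.29 normalized counts in the controls, against 12.2 and 25.7 in the knockdown. Both knockdown libraries lay above both controls, and they differed from each other about as widely as the controls did on the log2 scale. In limma the knockdown differed by 3.02 on the log2 scale (SE 0.69, adjusted p = 0.0185). The mean over the 4 libraries was 10.2, just past the filter of 10, and KRT14 passed it through the knockdown libraries alone, so this p is no independent support for a difference. The fold change depended on the pseudocount, with 3.36 at a pseudocount of 0.5 and 1.84 at a pseudocount of 5. Without siHNF4A 1 the adjusted p was 0.0616, and without siHNF4A 2 it was 0.210 in limma. With all genes above 0 tested it was 0.0783.

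The control values of KRT14 are close to the smallest that the table holds. For genes detected in a single library, the commonest value under 1.6 normalized counts was 1.23 (control 1), 1.11 (control 2), 0.9 (siHNF4A 1) and 1.01 (siHNF4A 2). KRT14 lay under this value in control 1 and above it in control 2. KRT14 is also close in sequence to KRT16 and KRT17, chains of activated and basal-like epithelium, and reads could be split among them. KRT16, a member of the other keratins described below, was called higher as well. The sum of KRT14, KRT16 and KRT17 was 344 and 453 normalized counts in the controls, against 456 and 491 in the knockdown, which is 0.26 higher on the log2 scale (adjusted p = 0.259 in limma). KRT17 made up most of each sum, with 319 and 419 in the controls, against 369 and 406 in the knockdown. The sum therefore says little about KRT14, and a split of reads was not tested.

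KRT5, the type II partner of KRT14 in basal cells, had 32.6 and 12.1 normalized counts in the controls, against 6.14 and 10.5 in the knockdown. Both knockdown libraries lay below both controls. In 57% of all tested genes the 2 groups did not overlap, in one direction or the other. The fitted log2 fold change of -1.21 had a 95% interval from -2.47 to 0.050 (adjusted p = 0.190 in limma). With a knockdown mean of 8.33 and a control mean of 22.4, KRT5 passed the filter of 10 through the controls alone, so its interval and p are a description. Control 1 stood well above control 2: the log2 fold change was -0.53 without control 1 and -1.89 without control 2, where the adjusted p in limma was 0.0363.

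KRT13, the chain of upper oesophageal layers, was at 1.05 and 0.640 normalized counts in the controls and listed at 0 in both knockdown libraries, and was not tested. These values are at or under that of the smallest common step given above. SOX2, a transcription factor of the foregut and of squamous epithelium, had 19.2 and 18.5 normalized counts in the controls, against 23.8 and 34.8 in the knockdown. The groups did not overlap, and siHNF4A 2 lay furthest from the controls. The fitted log2 fold change of 0.58 had a 95% interval from -0.24 to 1.41 (adjusted p = 0.337 in limma). SOX2 lies within the long noncoding gene SOX2-OT, which had between 5.09 and 12.4 normalized counts with overlapping groups.

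Summed over each class, the columnar markers came to 37627 and 40524 normalized counts in the controls, against 35835 and 35622 in the knockdown. The squamous markers came to 53.5 and 33.6 in the controls, against 42.2 and 71.0 in the knockdown, so these groups overlapped. The columnar to squamous ratio of the sums was 703 and 1208 in the controls, against 850 and 502 in the knockdown. The groups overlapped, and the mean difference of -0.50 on the log2 scale (exact two-sided permutation p = 0.667) was smaller than the SD of 0.55 between the controls. The median log2 fold change was 0.034 over the 5 columnar markers tested and 0.58 over the 3 squamous markers tested, against -0.0073 over all tested genes. Of the squamous markers, KRT14 and KRT5 each passed the filter through a single group alone. The median of 0.58 is the value of SOX2, which was not called, so it says little about the class. In bulk RNA a smaller number of cells making a keratin and less of it per cell cannot be told apart.

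**Figure D3:**
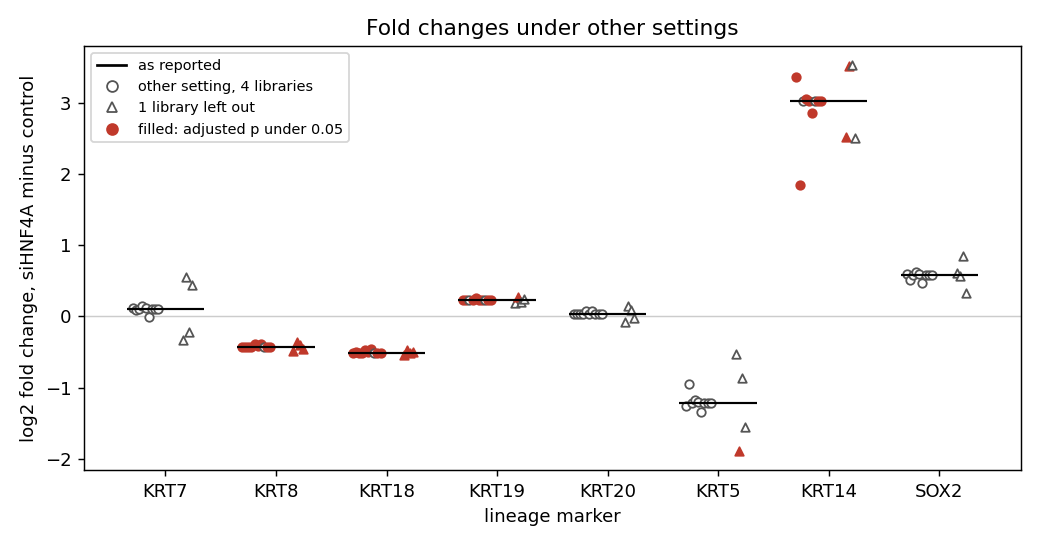
Log2 fold changes of the 8 tested markers as reported (black lines), under other settings with all 4 libraries (circles) and with 1 library left out (triangles); filled symbols have an adjusted p under 0.05. KRT8 and KRT18 stay between -0.55 and -0.36, KRT14 spreads from 1.84 to 3.53, and KRT5 from -1.89 to -0.53.

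The other epithelial keratins were examined next, as the family from which the markers are drawn. Of 21 listed genes 13 were in the table and 7 were tested, of which 2 were called higher and 5 were not called in limma, with a median log2 fold change of 0.084, where 6.02% of all tested genes were called higher. KRT23, a type I chain found in gastrointestinal tumours, rose from 2951 and 2948 normalized counts in the controls to 4138 and 4042. The 2 controls were almost equal and both knockdown libraries lay above them. The rise was 0.47 on the log2 scale (SE 0.061, adjusted p = 0.00123 in limma). KRT23, like DST, PLEC and VWF named below, overlaps another RefSeq gene. KRT23 per KRT8 went from 0.190 and 0.173 to 0.348 and 0.327.

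KRT16, a chain of wounded or activated squamous epithelium, rose from 24.4 and 31.3 normalized counts to 74.4 and 58.8, a log2 fold change of 1.23 (adjusted p = 0.0219 in limma). Its adjusted p was 0.164 without siHNF4A 1 and 0.0699 without siHNF4A 2. KRT15, a basal type I chain, had 182 and 111 in the controls, against 242 and 209 in the knockdown and was not called (adjusted p = 0.0851 in limma). KRT17 had 319 and 419 in the controls, against 369 and 406 in the knockdown, and these groups overlapped. KRT6A and KRT78, chains of stratified squamous epithelium, were listed at 0 in all 4 libraries.

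Keratin genes lie in a type II group on chromosome 12, with KRT18 at its edge as the only type I gene there, and a type I group on chromosome 17. Of the 5 keratin genes of chromosome 12 that were tested, KRT8 and KRT18 were lower and 3 were not called. Of the 9 tested on chromosome 17, 4 were higher, namely KRT19, KRT16, KRT23 and, with the limit on its test given above, KRT14, and 5 were not called. Over all tested genes 6.02% were called higher and 8.11% lower, and 37.6% in either direction among genes that averaged at least 5000, such as KRT8, KRT18 and KRT19. The arrangement was looked at after the values were seen, and no test was made of it.

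**Figure D4:**
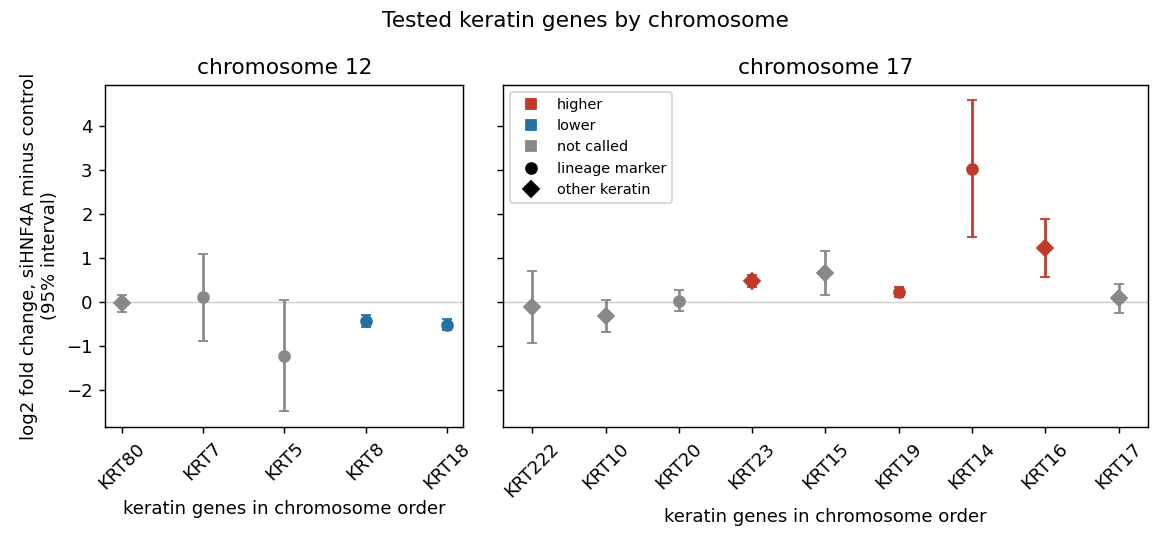
Log2 fold changes of the 14 tested keratin genes with 95% intervals from limma, in their order along chromosomes 12 (left) and 17 (right); colour marks the call, circles are the lineage markers and diamonds other keratins. The 2 lower calls, KRT8 and KRT18, are adjacent on chromosome 12, and the 4 higher calls are on chromosome 17.

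A wider columnar programme of 28 genes was given beside the markers. Of these 24 were tested, 6 were called higher and 4 lower, with a median log2 fold change of 0.080. The higher calls include REG4, a secreted lectin of the gut, with 5.06 and 8.62 normalized counts in the controls, against 51.4 and 59.3 in the knockdown, which passed the filter through the knockdown libraries alone. Over all tested genes 6.02% were called higher and 8.11% lower, and 37.6% were called in either direction among genes that averaged at least 5000, such as EPCAM and CLDN4. EPCAM, an adhesion molecule of simple epithelia, fell from 30669 and 30712 to 25123 and 25094 normalized counts (log2 fold change -0.29, adjusted p = 0.00286 in limma). The tight junction gene CLDN4 fell from 12212 and 14580 to 10723 and 10954. MUC1, a membrane mucin, rose from 2145 and 2332 to 4687 and 4169, a log2 fold change of 0.98 (adjusted p = 9.72e-05 in limma). AGR2, a chaperone of mucus-producing cells, rose from 1580 and 1819 to 2522 and 2636, and the membrane mucin MUC13 rose by 0.44 on the log2 scale. CLDN4 was not called without control 2 (log2 fold change -0.17, adjusted p = 0.0962 in limma), siHNF4A 1 (0.125) or siHNF4A 2 (0.0955). EPCAM overlaps another RefSeq gene.

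The label of the cell line was checked against its defining markers. EPCAM, CDH1, KRT8, KRT18, KRT19, VIL1 and CDH17 were each at 4296 normalized counts or more in every library. Other genes of the columnar programme had far lower values, and without transcript lengths such levels are only roughly comparable between genes. CLDN18, ANXA10 and PHGR1 averaged 0.869, 0.304 and 3.93 over the 4 libraries, and TFF3 and CEACAM5 averaged 27.1 and 39.3. Of the squamous defining genes, IVL was listed at 0 in 3 libraries and at 0.929 in siHNF4A 1, DSG3 at no more than 1.79, and KRT13 at no more than 1.05, while PAX9, a transcription factor of the oesophageal lining, had between 101 and 139. TRIM29, also on the squamous list, had between 1183 and 1409. The same list holds more abundant genes, among them ITGB4, with between 5665 and 5943, and ITGA6, with between 3799 and 4378.

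Of the 39 genes of the squamous programme 29 were in the table and 14 were tested, with 15 under the filter. KLF4, a factor of differentiating epithelium in both squamous and columnar tissue, rose from 1370 and 1645 to 1851 and 1938 normalized counts (adjusted p = 0.0410 in limma). It was not called without control 1 (adjusted p = 0.162), without siHNF4A 1 (0.101) or without siHNF4A 2 (0.179). GRHL3, a factor of the outer epidermal barrier, fell from 279 and 326 to 163 and 177, a log2 fold change of -0.82 (SE 0.15, adjusted p = 0.00649 in limma). It overlaps GRHL3-AS1 and STPG1 in RefSeq. The median log2 fold change of the tested genes was 0.12, and the 12 genes that were not called included PAX9 and TRIM29, with log2 fold changes of 0.34 and 0.18.

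Genes that anchor keratin filaments or neighbour them in the cell were compared as well. Of 13, all were tested, and 4 were called higher, 2 lower and 7 not called, with a median log2 fold change of 0.095. Over all tested genes 14.1% were called, and 37.6% of those that averaged at least 5000, to which DST, PLEC and LMNA belong. EVPL, a plakin of the cell envelope, rose from 1447 and 1281 to 1736 and 1746 normalized counts, and DST, a plakin of hemidesmosomes, from 6634 and 6755 to 7841 and 7857. PLEC, which links keratins to hemidesmosomes and other filaments, fell from 9343 and 8572 to 7682 and 7295 (adjusted p = 0.0213 in limma). Of the nuclear lamins, which are intermediate filament proteins of the nucleus, LMNA rose by 0.36 and LMNB1 fell by 0.26 on the log2 scale. Some of these calls were lost when certain libraries were left out. EVPL had an adjusted p in limma of 0.0757 without control 2, 0.0826 without siHNF4A 1 and 0.0912 without siHNF4A 2, and DST of 0.105 without siHNF4A 1 and 0.111 without siHNF4A 2. PLEC had 0.0650 without control 1, 0.0599 without siHNF4A 1, 0.149 without siHNF4A 2 and 0.0797 after quantile normalization, and LMNA had 0.0637 without siHNF4A 2. The call of LMNB1 did not hold with equal library totals (adjusted p = 0.0664 in limma) or after quantile normalization (0.0739). It was also lost without control 2 (0.160), siHNF4A 1 (0.0685) or siHNF4A 2 (0.244).

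Among relatives of TP63 and SOX2, 13 were listed and 4 tested, with 1 called higher, where 6.02% of all tested genes were called higher. SOX4, a SOX factor of progenitor cells, rose from 3929 and 3508 to 5055 and 5359 normalized counts (log2 fold change 0.49, adjusted p = 0.00218 in limma). TP73, a relative of TP63, was not called, with a log2 fold change of -0.22 (adjusted p = 0.288 in limma).

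Markers of other cell types were read in the same libraries. Of 11 mesenchymal genes 9 were in the table and 0 of 5 tested were called in limma, with 2 at an unadjusted p under 0.05. The shares over all tested genes were 14.1% for calls and 28.9% for an unadjusted p of this size, so with 4 or 5 tested genes a list, these counts and those of the next lists say little. Their values summed to 306 and 262 in the controls, against 315 and 319 in the knockdown, SPARC was listed at 0 in all 4 libraries, and VIM, the mesenchymal intermediate filament gene, had between 17.4 and 21.2. COL1A1, a collagen gene, had 179 and 108 in the controls, against 202 and 212 in the knockdown (log2 fold change 0.57, adjusted p = 0.128 in limma). The controls differed: the log2 fold change was 0.93 without control 1 (adjusted p = 0.00341) and 0.21 without control 2 (adjusted p = 0.556 in limma). FN1, the fibronectin gene, had 71.5 and 103 in the controls, against 49.6 and 59.9 in the knockdown (log2 fold change -0.65, adjusted p = 0.136 in limma). Of 9 blood and endothelial genes 6 were in the table and 4 were tested, with sums of 97.1 and 83.1 in the controls, against 99.1 and 144 in the knockdown. VWF had 8.55 and 6.68 in the controls, against 47.5 and 36.4 in the knockdown. Its control mean of 7.62 is under the filter of 10, which it passed through the knockdown libraries alone, so its call (adjusted p = 0.00542 in limma, 0.0701 without siHNF4A 1) is a description. Of 8 neuroendocrine genes 7 were in the table and 4 were tested, with sums of 134 and 186 in the controls, against 253 and 269 in the knockdown. INSM1, a factor of endocrine cells, rose from 6.11 and 17.8 to 57.5 and 68.8 (adjusted p = 0.00746 in limma), and was not called without siHNF4A 2 (adjusted p = 0.0627). The part of these genes in the values of KRT14 was not tested.

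The genes whose profile over the 4 libraries was most like that of KRT18, the called columnar marker with the largest change, were IL17RB, an interleukin receptor gene, PLP2, a membrane proteolipid gene, and BDKRB2, a bradykinin receptor gene. The root mean square distance of their log2 values, each gene centred on its own mean, was 0.010, 0.015 and 0.017, among 10917 genes that averaged at least 100 normalized counts. They had log2 fold changes of -0.50, -0.53 and -0.50, and each overlaps another RefSeq gene. IL17RB was not called without control 2 (adjusted p = 0.0528 in limma), siHNF4A 1 (0.0601) or siHNF4A 2 (0.0776). For KRT14, the called squamous marker, the nearest were ZNF702P, VTCN1 and GNA14 at distances of 0.72, 0.79 and 0.85. Only genes that averaged at least 100 were searched, and KRT14 itself averaged 10.2, so genes of its own level were not compared. With 4 libraries such likeness mostly reflects the difference between the 2 groups.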

How the data were processed

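RNA-seq of ESO26 cells was used, 2 control and 2 siHNF4A libraries, grouped by their titles. The authors deposited 1 table of normalized counts, a fractional signal per gene whose normalization is not given in the sources used here. The submitters' processing notes list hg19, Bowtie, Bowtie2, Trim Galore, Picard and MACS2 without a role for each. Absolute depth is unknown, so no counting intervals are given. The 2 ChIP-seq peak lists and the 4C libraries were not used here.

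Differences were tested with limma 3.58.1 (R 4.3.3), with eBayes and its trend option on. Values were taken as log2(normalized count + 1), which understates the change of low genes, and genes under a mean of 10 were left out. The fit was tested on simulated data with known changes. The smallest p of an exact two-sided permutation test is 0.333 for 2 libraries against 2. Other pseudocounts, filters, scalings, variance models, a block and left-out libraries were tried. Named genes are the markers, HNF4A, up to 3 called genes of each list in each direction by smallest p (or the gene with the smallest p), and the nearest profiles. KRT15, KRT17, KRT6A, KRT78, PAX9, TRIM29, ITGB4, ITGA6, IVL, DSG3, TP73, SPARC, VIM, SOX2-OT, CLDN18, ANXA10, PHGR1, TFF3, CEACAM5, FN1 and REG4 stand outside this rule. Some genes that the rule or the lists hold are not reported here by name. The markers and lists were chosen with earlier results of these data known. Of 30755 symbols 19440 match a current symbol. Gene order and overlaps come from RefSeq on GRCh38.p14. Levels per length had been planned and were not computed, since no transcript lengths were used.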

Additional observations from a re-analysis of the deposited data

How the results depend on the processing

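The call threshold of 0.01 and the sum of KRT14, KRT16 and KRT17 were added after seeing the data. The 4 called markers were also called with either other pseudocount, all 3 rescalings, the robust fit and the replicate block, and the 3 of them that reach a mean of 50 were called with that filter. With all genes above 0 tested, 2 markers and 726 genes were called, KRT8 and KRT18 among them. Without the variance trend 0 markers and 0 genes were called in limma, although 3 markers and 3524 genes had an unadjusted p under 0.05. The cause was not tested. At an adjusted p under 0.01, 2 markers and 882 genes (5.66%) were called. With 1 library left out, between 2 and 5 markers and between 1013 and 2449 genes were called, against 4 and 2202 as reported; these fits rest on fewer samples, and the lone library of a group is assumed to vary like the other group. Without siHNF4A 1 or siHNF4A 2, KRT8 and KRT18 remained. KRT7 changed sign after quantile normalization, to -0.010, and lay between -0.33 and 0.55 with 1 library left out, and KRT20 lay between -0.082 and 0.15. Neither was called in any of these fits. The replicate block gave 4 called markers and 2428 genes, and same-numbered libraries did not deviate together (Pearson correlation -0.019 over 15577 genes, a description), so no pairing was assumed. The columnar to squamous log2 ratio lay between -0.89 and -0.11 with 1 library left out. Its version per length was not run. Values near 1 normalized count limit KRT13 and the controls of KRT14.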
